A study of Mus musculus with 42 samples.

Results

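The comparison described here asks whether an inhibitor of phosphodiesterase 10 (PDE10) acted on hippocampal gene expression differently in wild type (WT) mice and in mice labelled as PDE10A knockouts (KO). Its measure is the interaction, the drug effect in WT (inhibitor minus vehicle) minus the drug effect in KO, on the log2 scale. A positive interaction means that the drug effect was higher in WT than in KO. The hippocampal arrays were chosen by their titles and are 22 of the 42 arrays of the series. They comprise 6 WT arrays with inhibitor (numbers 10 to 15), 6 WT arrays with vehicle (1 to 6), 5 KO arrays with inhibitor (34, 35, 36, 37 and 39) and 5 KO arrays with vehicle (25, 26, 28, 29 and 30). Total RNA of snap-frozen, microdissected tissue from C57BL6 animals was labelled with biotin and hybridised to Affymetrix arrays. The compound, its dose, the time after dosing, the animals' age and the deleted part of the gene are not given in the labels used here. No label says whether the arrays within a group stand for different animals. The p-values therefore measure the spread between these arrays, which may be technical, and their number limits the precision. In such bulk tissue, fewer cells of a type and less RNA per cell cannot be told apart.

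PDE10A hydrolyses the second messengers cAMP and cGMP. It is very abundant in the projection neurons of the striatum and scarce in the hippocampus, where other phosphodiesterases carry most of this activity. Blocking such an enzyme lets cyclic nucleotides build up, cAMP activates protein kinase A, and the kinase phosphorylates CREB, a transcription factor that binds cAMP response elements in promoters of early response genes such as Fos and Nr4a1. An inhibitor that acts only through PDE10A would have no target in an animal without the enzyme, and the interaction is the quantity that separates an effect through the target from other effects of the drug.

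By group means the tissue label held against markers. The 9 markers of dentate granule neurons, the cells that fill the granule layer of the dentate gyrus, averaged log2 7.75 to 8.08 in the 4 hippocampal groups, against 5.71 to 5.78 in the 4 striatal groups. Striatal projection neuron markers averaged 7.05 to 7.12 in the hippocampal groups, against 11.22 to 11.58 in the striatal groups. Among single arrays, WT inhibitor 13 had a dentate mean of 6.12, within the range of KO striatal vehicle arrays (5.51 to 6.27). Its striatal marker mean was 7.09.

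Pde10a (chromosome 17), the targeted gene, showed no interaction beyond its spread and set single arrays apart. Its log2 signal was 8.93, 9.12, 9.88, 8.54, 9.84 and 9.29 on WT inhibitor arrays 10 to 15, against 8.94 to 9.04 with a median of 9.01 on the 6 WT vehicle arrays. It was 9.51, 9.80, 9.73, 9.59 and 9.81 on the KO inhibitor arrays, against 9.04, 9.08, 9.52, 10.16 and 9.54 on KO vehicle 25, 26, 28, 29 and 30. KO arrays did not lie below WT arrays. Since the deleted part is not given, this signal checks nothing about the loss of the gene. WT inhibitor 12 and 14 were the highest WT arrays, above all KO arrays but KO vehicle 29. KO vehicle 25 and 26 were the lowest KO arrays, the first within the range of WT vehicle and the second just above it. These 4 arrays were picked by this measured signal, and the main values are also given without them. Leaving out the highest WT and the lowest KO arrays by itself raises KO against WT, so the other arrays establish no genotype difference. In striatum Pde10a averaged 12.35 in KO and 12.32 in WT with vehicle, and 12.42 in KO and 12.49 in WT with inhibitor. The interaction for Pde10a was 0.04 ± 0.28 (SE), from a drug effect of 0.26 ± 0.19 in WT and 0.22 ± 0.21 in KO (limma adjusted p = 0.961). Leaving out either WT inhibitor 12 or 14, picked for their high Pde10a, must lower this interaction, and it turned to -0.08 and -0.07. With all 22 arrays, the other probe sets of Pde10a gave -0.36 ± 0.34, 0.14 ± 0.23, 0.02 ± 0.17 and -0.37 ± 0.36.

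Other arrays were set apart by markers of neighbouring tissue. The mean of 9 dentate granule markers was 6.12 on WT inhibitor 13 and 7.64 to 8.54 on the other arrays of that group. On that array Dsp was at 4.16 and Tdo2 at 3.27, where the other WT inhibitor arrays had Dsp at 7.92 to 9.32 and Tdo2 at 6.06 to 7.45. A group of 6 cerebellar transcripts, a list chosen after their values were seen, were high on WT vehicle 1 and 3 and on KO inhibitor 36. Gabra6, a GABA-A receptor subunit of cerebellar granule cells, had a log2 signal of 9.95, 8.49 and 8.35 on those arrays, against a highest value of 4.86 on the other 19. By the mean of the 6 transcripts KO vehicle 30 came next, at 6.31 against 9.33, 7.48 and 7.69 on those arrays. Among the KO vehicle arrays Pcp2, of that list, reached 8.67 and Car8 9.03. Ttr, the main transcript of choroid plexus, ran from 8.67 to 14.69 over the 22 arrays. Values without the 3 arrays highest in cerebellar transcripts and WT inhibitor 13, called the 4 arrays set apart by markers below, are given where they move a result. KO vehicle 30 stays in those fits.

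**Figure D1:**
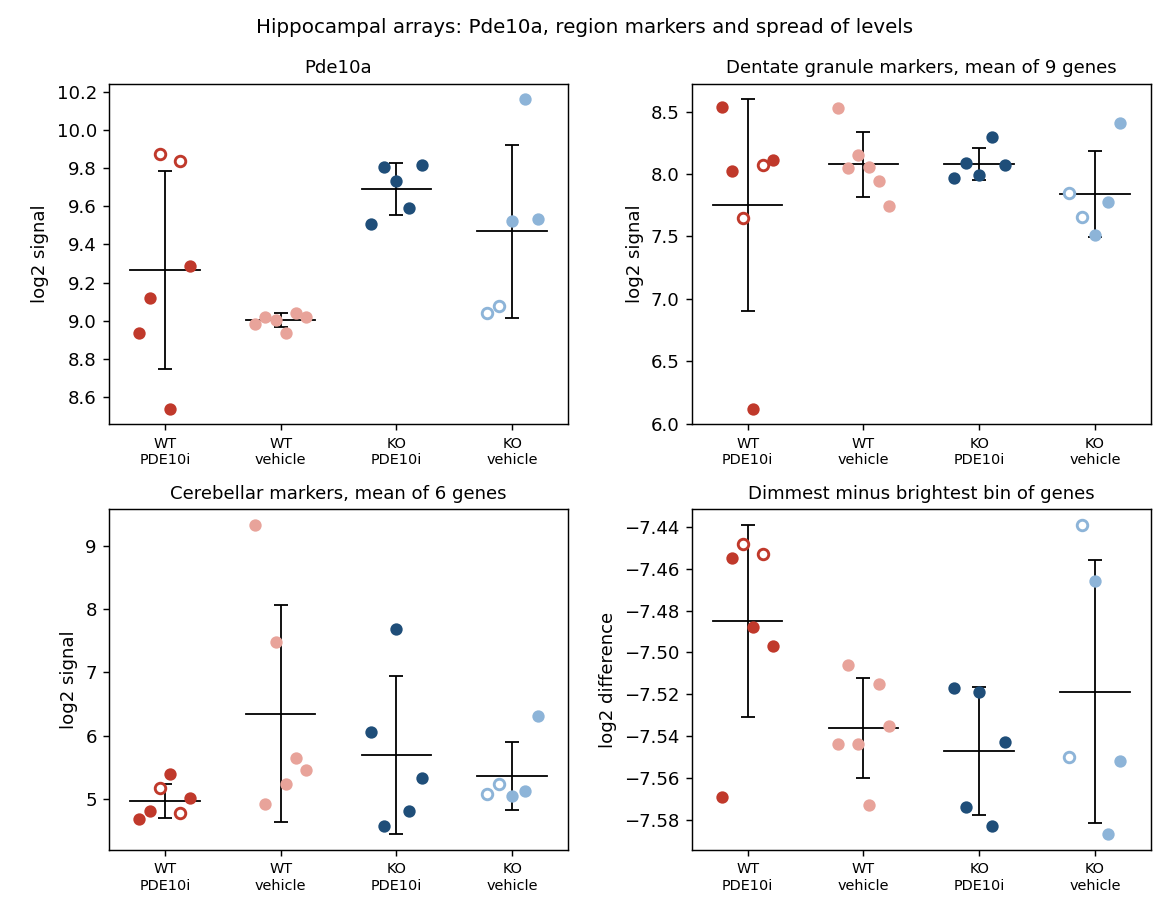
Log2 signal of Pde10a, mean log2 signal of 9 dentate granule markers and of 6 cerebellar markers, and the difference between the dimmest and the brightest of 10 bins of genes, for each of the 22 hippocampal arrays by group. Points are arrays, black bars are means ± SD, and open points are WT inhibitor 12 and 14 and KO vehicle 25 and 26, the highest WT and the lowest KO arrays for Pde10a. WT inhibitor 13 has the lowest dentate mean (6.12).

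No gene passed the threshold for the interaction. Of 18193 genes tested, 0 (0%) had an adjusted p under 0.05 in limma with Benjamini-Hochberg adjustment, and the smallest adjusted p was 0.266. At an unadjusted p under 0.05 there were 2151 genes (11.8%), 1033 with a positive interaction (5.68%) and 1118 with a negative one (6.15%). With the quantile normalization repeated over the 22 arrays there were 1062 positive and 524 negative ones. At an unadjusted p under 0.001 there were 50 genes (0.275%), 40 of them positive (0.22%) and 10 negative (0.055%). Neither drug effect passed on its own: the smallest adjusted p was 0.139 in WT, with 1948 genes (10.7%) under an unadjusted 0.05, and 0.993 in KO, with 695 genes (3.82%). Without the 4 arrays set apart by Pde10a, 692 genes (3.8%) had an unadjusted p under 0.05 for the interaction, 425 positive (2.34%) and 267 negative (1.47%), and the smallest adjusted p was 0.999.

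The arrays limited the size of difference that could have stayed unseen. The median SE of an interaction was 0.10, and the median half-width of its 95% interval was 0.21. For 17966 genes (98.8%) the 95% interval lay within 1 log2 unit on either side of 0, and for 15579 (85.6%) within 0.5. Of 13 choroid plexus genes 2 lay within 1 log2 unit, of 9 dentate granule markers 3, and of 6 cerebellar transcripts 0. The drug effect in WT had opposite signs to that in KO for 11832 genes (65%). Across genes, which are not independent replicates, the drug effects in WT and KO correlated at Pearson r = -0.32 and Spearman rho = -0.36. The 2 effects share no arrays.

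The sign of the interaction followed the level of a gene. Genes were put in 10 bins of equal size by mean hippocampal signal, from 1, the dimmest, to 10. In the dimmest 3 bins, 72% of interactions were positive, with a median of 0.08. In the brightest 5 bins, 26.1% were positive, with a median of -0.06, against a median of -0.02 over all genes. The plot by level shows that both drug effects took part: in bin 3 the median was 0.07 in WT and -0.03 in KO, and in bin 7 it was -0.04 in WT and 0.04 in KO. Of the 2151 genes with an unadjusted p under 0.05, the lowest 3 bins held 617 positive and 68 negative ones.

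The same arrays differed in their spread of levels. The mean of the dimmest bin of genes minus that of the brightest was -7.57, -7.46, -7.45, -7.49, -7.45 and -7.50 on WT inhibitor 10 to 15, against -7.57 to -7.51 on the 6 WT vehicle arrays. It was -7.58 to -7.52 on KO inhibitor arrays, against -7.55, -7.44, -7.47, -7.59 and -7.55 on KO vehicle 25, 26, 28, 29 and 30. Thus 5 of 6 WT inhibitor arrays lay above all WT vehicle arrays, while WT inhibitor 10 lay among them. With this difference as a covariate, added after seeing the data, 51.2% of interactions were positive in the dimmest 3 bins and 43.7% in the brightest 5 bins, and 793 genes (4.36%) had an unadjusted p under 0.05. With the quantile normalization repeated over the 22 arrays the shares were 59.1% and 46.2%, and without the 4 arrays set apart by Pde10a they were 63.2% and 33.2%. The part of this difference in the interactions of single genes was not tested.

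**Figure D2:**
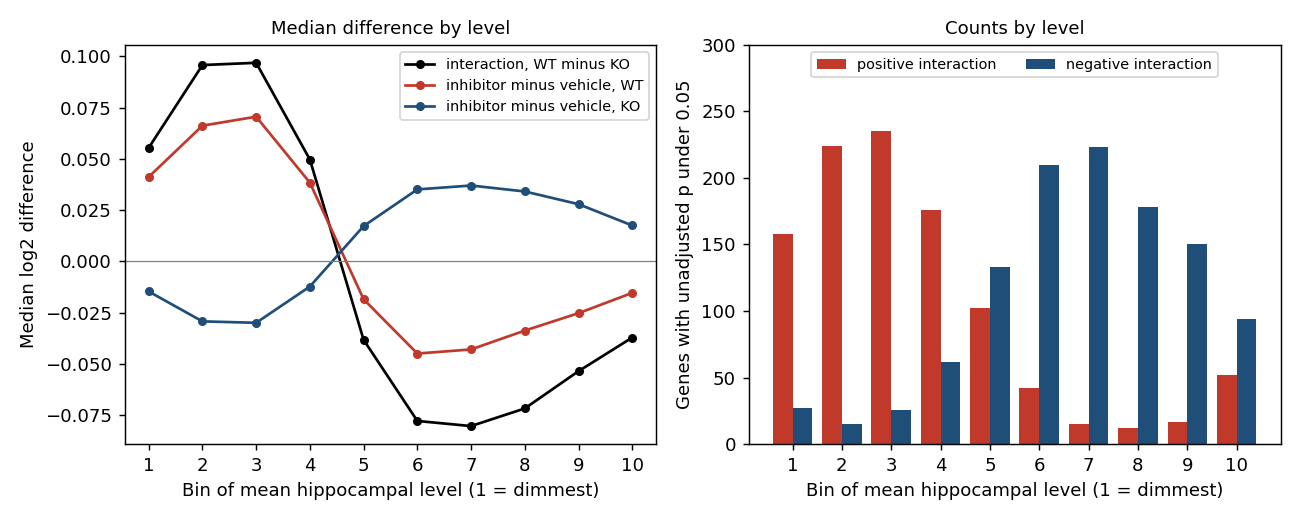
Left, median log2 difference of the interaction and of each drug effect in 10 bins of mean hippocampal level, 1 being the dimmest. Right, number of genes with an unadjusted p under 0.05 and a positive or a negative interaction in each bin. Dim genes lean positive and bright genes negative, and the WT and KO drug effects cross between bins 4 and 5.

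The genes with the smallest p are described by their values, since none passed after adjustment. Among the 10 with a positive interaction, 8 had a mean hippocampal signal under log2 6. Insrr (chromosome 3), a receptor tyrosine kinase of the insulin receptor family, had the smallest p of them. Its signal was 4.70 to 4.98 with a median of 4.90 on WT inhibitor arrays, against 4.52 to 4.73 with a median of 4.66 on WT vehicle arrays. It was 4.72, 4.79, 4.78, 4.76 and 4.62 on KO inhibitor arrays, against 4.83, 5.05, 4.92, 4.85 and 4.80 on KO vehicle arrays. The WT groups overlapped only through inhibitor array 10, and the KO groups did not overlap, in the opposite direction. The interaction was 0.39 ± 0.08 (SE), from 0.23 in WT and -0.15 in KO (limma adjusted p = 0.266).

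Adamts5 (chromosome 16), a secreted protease that cleaves proteoglycans of the extracellular matrix, behaved alike. Its signal was 5.05, 4.97, 5.02, 5.15, 4.98 and 5.19 on WT inhibitor arrays, against 4.72 to 4.96 with a median of 4.90 on WT vehicle arrays. It was 4.94, 4.80, 4.88, 4.84 and 4.96 on KO inhibitor arrays, against 5.13, 5.10, 5.04, 5.11 and 4.92 on KO vehicle arrays. The WT groups did not overlap, while KO vehicle 30 lay within the KO inhibitor range. Its interaction was 0.37 ± 0.08, and its other 3 probe sets gave -0.20, 0.07 and 0.00. Irf1 (chromosome 11), an interferon-regulated transcription factor and the brightest of the 10, was 7.62 to 7.65 on WT inhibitor arrays, against 7.43 to 7.58 on WT vehicle arrays. It was 7.49 to 7.56 on KO inhibitor arrays, against 7.63, 7.68, 7.68, 7.48 and 7.65 on KO vehicle arrays, and its interaction was 0.24 ± 0.06.

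The other positive genes had interactions between 0.34 and 0.48. Tm4sf5, a membrane protein with 4 transmembrane segments, gave 0.48 ± 0.10, and Syngr4, of the synaptogyrin family, gave 0.44 ± 0.10. Ctse, the aspartic protease cathepsin E, gave 0.43 ± 0.09 from one probe set and -0.65 from the other, so its direction rests on the choice of probe set. Olfr75-ps1, an olfactory receptor pseudogene, gave 0.42 ± 0.09, Ripor3 gave 0.41 ± 0.09 and Cmtm1 gave 0.40 ± 0.08. Gtf2a1l, a relative of transcription factor TFIIA known from germ cells, gave 0.34 ± 0.07. In all 10 the drug effect was positive in WT and negative in KO.

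The 10 genes with a negative interaction were brighter, 7 of them above log2 6. Kti12 (chromosome 4), whose yeast counterpart works with the Elongator complex in tRNA modification, had the smallest p of all genes. Its signal was 7.43, 7.38, 7.32, 7.34, 7.37 and 7.40 on WT inhibitor arrays, against 7.61, 7.60, 7.68, 7.57, 7.66 and 7.50 on WT vehicle arrays. It was 7.57, 7.58, 7.49, 7.72 and 7.57 on KO inhibitor arrays, against 7.49, 7.27, 7.39, 7.50 and 7.53 on KO vehicle arrays. The WT groups did not overlap, and the KO groups overlapped through inhibitor array 36. Its interaction was -0.38 ± 0.07 (limma adjusted p = 0.266), and without the 4 arrays set apart by Pde10a it was -0.33.

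Nostrin (chromosome 2), which binds endothelial nitric oxide synthase and directs its traffic in vessel cells, had the largest size among these genes. Its signal was 5.54 to 5.78 with a median of 5.58 on WT inhibitor arrays, against 5.56 to 6.03 with a median of 5.74 on WT vehicle arrays. It was 6.01, 6.35, 6.02, 6.39 and 5.76 on KO inhibitor arrays, against 5.78, 5.51, 5.59, 5.73 and 5.74 on KO vehicle arrays. The interaction of -0.58 ± 0.14 came mostly from KO (0.44 ± 0.10), where 4 of 5 inhibitor arrays lay above all vehicle arrays. Ppfia4, the presynaptic scaffold liprin-alpha-4, gave -0.44 ± 0.11, with 2 other probe sets at -0.12 and -0.35. Its value on WT inhibitor 13 was 8.01 and on the other arrays of that group 8.38 to 8.50.

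The remaining negative genes lay between -0.35 and -0.22. Sh2b3, an adaptor that dampens cytokine receptor signalling, gave -0.35 ± 0.09, with its second probe set at 0.13. Alg9, a mannosyltransferase of the endoplasmic reticulum that builds N-glycan precursors, gave -0.32 ± 0.08. Eda2r, a receptor of the tumour necrosis factor receptor family, gave -0.33 ± 0.09, and the zinc finger gene Zfp105 gave -0.34 ± 0.09. Aimp1, a scaffold of the multi-tRNA synthetase complex, gave -0.22 ± 0.06, Mrpl55, of the mitochondrial ribosome, gave -0.26 ± 0.07, and Tcta gave -0.27 ± 0.06. The other 3 probe sets of Tcta gave -0.09, -0.16 and 0.24, and the second of Alg9 gave 0.08. In all 10 the drug effect was negative in WT and positive in KO, opposite signs that this ranking also favours.

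**Figure D3:**
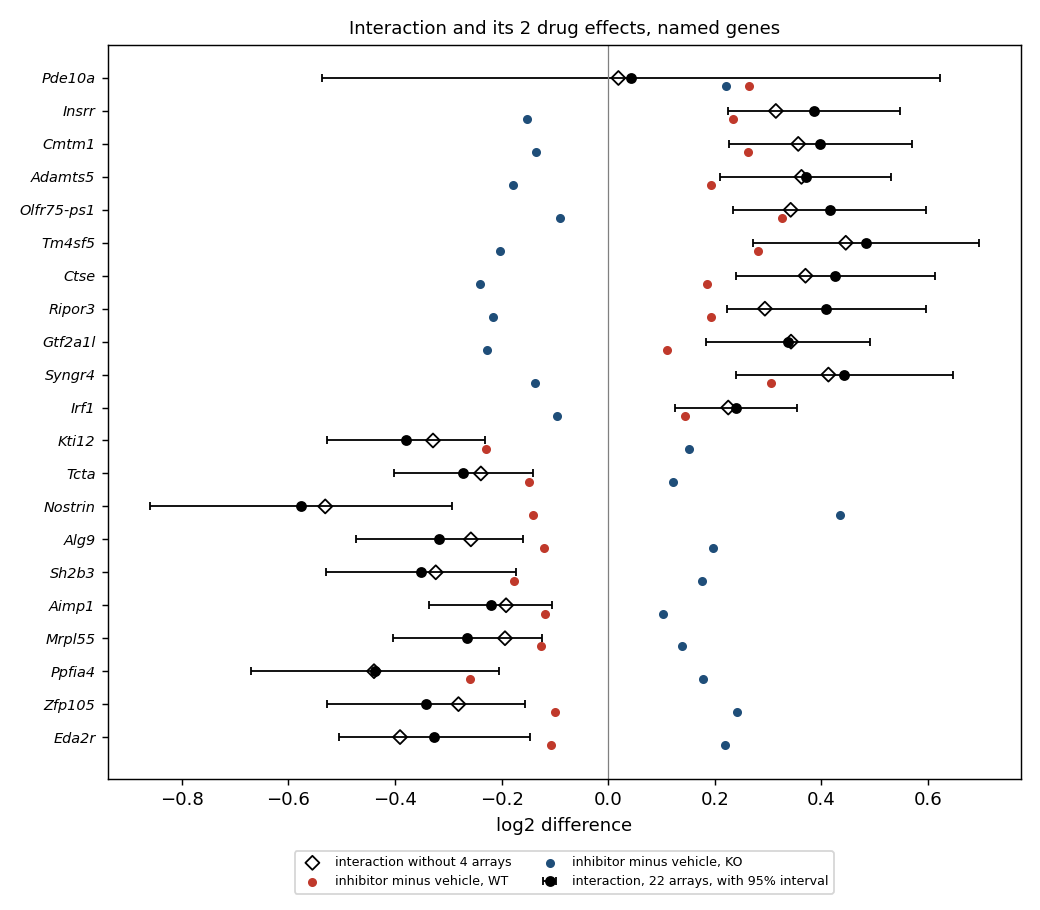
Interaction with its 95% interval for Pde10a and the 20 genes with the smallest p of either sign, on the log2 scale. Diamonds are the interaction without WT inhibitor 12 and 14 and KO vehicle 25 and 26, and coloured points are the drug effects in WT and KO. These lie on opposite sides of 0 for all 20 genes, which ranking by the interaction favours.

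Once the 4 arrays set apart by Pde10a were left out, Kti12 still had the smallest p of the named negative genes, and agouti that of the named positive ones. The positive ones were the coat colour signal agouti (a, 0.46), the RecQ helicase Wrn (0.36), Trim61 (0.34), the mitochondrial carrier family member Slc25a54 (0.42), Adamts5 (0.36) and the keratin-associated Krtap10-4 (0.38). The negative ones were Kti12 (-0.33), Eda2r (-0.39), Mocs3 (-0.31), which activates sulfur for the molybdenum cofactor and for tRNA, the Rab family GTPase Rasef (-0.28), Pnma3 (-0.50) and Ppfia4 (-0.44). Their adjusted p was 0.999 in limma. Adamts5, Kti12, Eda2r and Ppfia4 were named in both rankings. With all 22 arrays, the other 2 probe sets of Wrn gave -0.14 and -0.04.

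**Figure D4:**
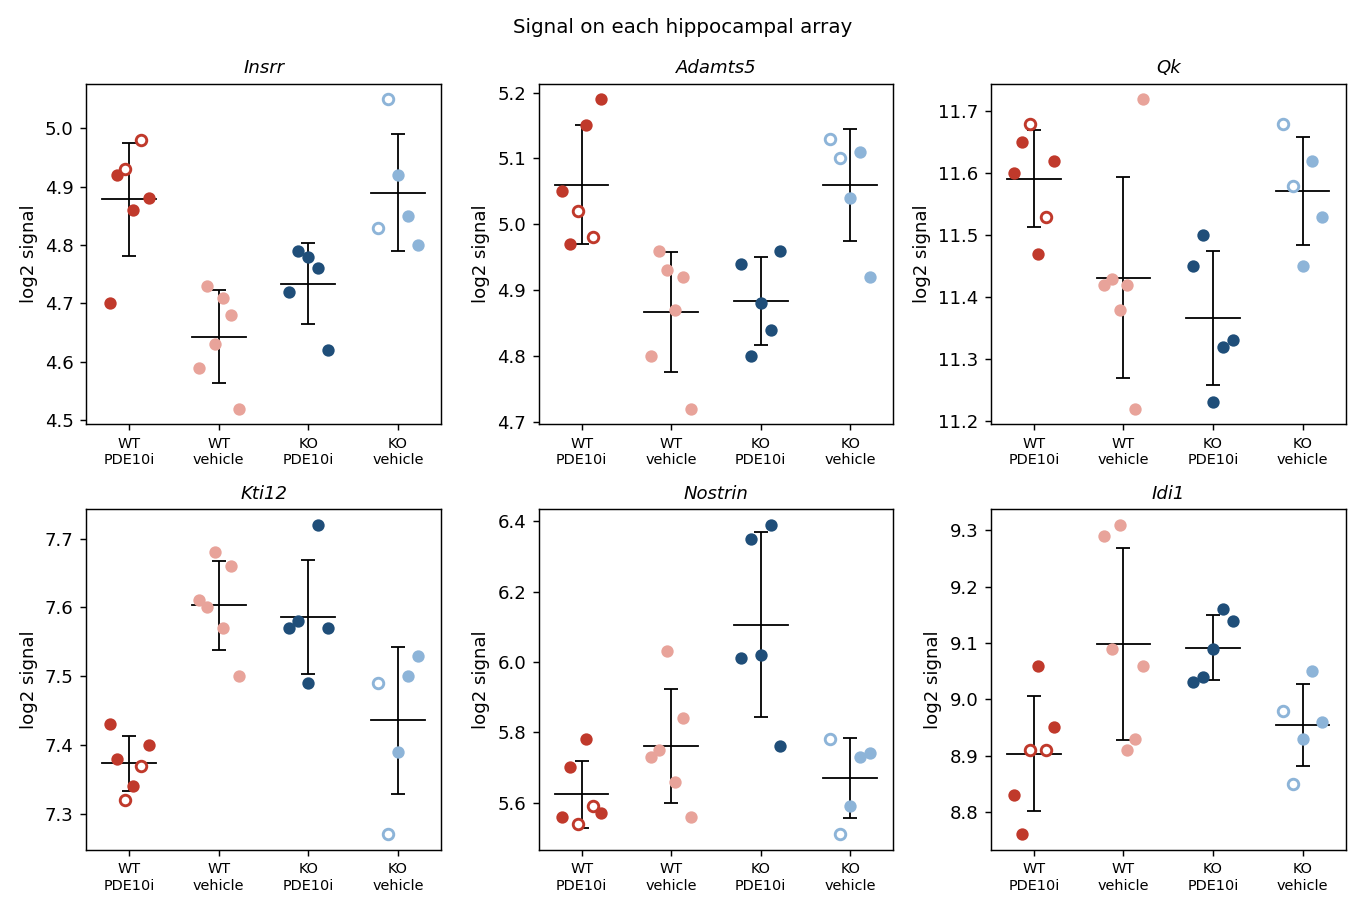
Log2 signal of Insrr, Adamts5, Qk, Kti12, Nostrin and Idi1 on each hippocampal array by group. Black bars are means ± SD, and open points are the 4 arrays set apart by Pde10a. For Kti12 the WT inhibitor arrays (7.32 to 7.43) lie below the WT vehicle arrays (7.50 to 7.68).

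Enzymes that break down, make and sense cyclic nucleotides had median interactions near 0, and their counts of each sign moved with the arrays kept. Of 22 phosphodiesterase genes other than Pde10a, 11 had a positive and 11 a negative interaction, with a median of -0.005, and 0 passed after adjustment. Without the 4 arrays set apart by Pde10a, 6 of 22 were positive, with a median of -0.02. Without the 4 arrays set apart by markers, 9 of 22 were positive, with a median of -0.04. Pde6h, an inhibitory subunit of the cone photoreceptor enzyme, was 4.16 to 4.62 on WT inhibitor arrays, against 4.15 to 4.41 on WT vehicle arrays. It was 4.28, 4.21, 4.20, 4.17 and 4.00 on KO inhibitor arrays, against 4.74, 4.38, 4.31, 4.35 and 4.30 on KO vehicle arrays. The KO groups did not overlap, the WT groups did, and the interaction was 0.36 ± 0.12 at a level near the dim end of the arrays. Pde11a, which like PDE10A hydrolyses both messengers, gave 0.28 ± 0.10, the calmodulin-dependent Pde1a gave 0.40 ± 0.19, and Pde6d, a chaperone of prenylated proteins, gave -0.17 ± 0.06. These 4 of 22 had an unadjusted p under 0.05 (11.8% of all genes), and without the 4 arrays set apart by Pde10a 0 of 22 did (3.8% of all genes).

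Of 16 cyclases and stimulatory G proteins, which make cAMP and cGMP or drive that step, 8 were positive and 8 negative. Their median was 0.005, and -0.04 without the 4 arrays set apart by markers. The retinal guanylyl cyclase Gucy2e (0.24 ± 0.11) was the only 1 of 16 with an unadjusted p under 0.05 (11.8% of all genes). Of 16 effectors, among them the subunits and inhibitors of protein kinase A, cGMP-dependent kinases and cyclic nucleotide-gated channels, 10 were positive, with a median of 0.02, and 7 (median -0.01) without those 4 arrays. Pkib, an inhibitor of protein kinase A, stood out from them. Its signal was 5.27 to 5.73 on WT inhibitor arrays, against 5.49 to 6.36 on WT vehicle arrays. It was 5.65, 5.71, 6.19, 5.86 and 5.82 on KO inhibitor arrays, against 6.01, 5.64, 5.43, 5.78 and 5.68 on KO vehicle arrays. Both pairs of groups overlapped, and the interaction was -0.50 ± 0.19 (limma adjusted p = 0.357). WT vehicle 1 and 3 and KO inhibitor 36, the arrays highest in cerebellar transcripts, held the highest 2 WT values and the highest KO value of Pkib.

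Early response genes, the usual first readout of cAMP signalling through CREB, gave no uniform direction. Of 36 tested, 13 were positive and 23 negative with a median of -0.10, against 44.7% positive and a median of -0.02 over all genes, and 0 passed after adjustment. At an unadjusted p under 0.05, 2 were positive and 4 negative, against 5.68% and 6.15% of all genes. Npas4, an activity-dependent transcription factor of neurons, had the largest difference. It was 6.00, 5.65, 6.05, 7.14, 5.52 and 6.04 on WT inhibitor 10 to 15, against 6.06 to 6.61 with a median of 6.36 on WT vehicle arrays. It was 5.77, 6.72, 6.90, 6.02 and 6.02 on KO inhibitor arrays, against 5.93, 5.98, 5.49, 5.81 and 5.57 on KO vehicle arrays. WT inhibitor 13 was the highest array of all and the other 5 of its group lay below every WT vehicle array. The interaction was -0.80 ± 0.33 (95% interval -1.48 to -0.13, adjusted p = 0.374 in limma).

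Bdnf, a neurotrophin whose promoters respond to CREB, gave -0.47 ± 0.21. Its signal was 9.26, 8.73, 8.46, 8.13, 8.64 and 8.70 on WT inhibitor 10 to 15, against 8.84 to 9.40 on WT vehicle arrays. It was 8.63, 8.87, 8.78, 9.21 and 8.79 on KO inhibitor arrays, against 8.52 to 8.98 on KO vehicle arrays. In WT, 5 of 6 inhibitor arrays lay below all vehicle arrays, and the KO groups overlapped. Gadd45g, a growth arrest gene, gave -0.30 ± 0.12, and Zfp36, which speeds the decay of short-lived mRNAs, gave -0.23 ± 0.11. In the other direction, Fosb of the Fos family gave 0.28 ± 0.13 and Sik1, a kinase that switches off CREB coactivators, gave 0.25 ± 0.10. Without the 4 arrays set apart by Pde10a the median of the 36 was -0.04, and without the 4 set apart by markers it was -0.16. Of 13 genes of the CREB family, its coactivators and its feedback, 6 were positive and 7 negative, and of 11 genes of ERK feedback 6 and 5 (4 positive without the 4 set apart by markers).

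The full cAMP response element, the 8 bases TGACGTCA, reads alike on both strands. In the RefSeq promoter table of GRCm38.p6, limited to 250 bases before each start, 508 of 32851 promoters (1.55%) hold it. Of the 36 early response genes 28 had a promoter in that table and 3 held the motif, Btg2, Dusp1 and Maff. Btg2 restrains proliferation, Dusp1 is a phosphatase that turns off MAP kinases, and Maff is a small Maf transcription factor. Their windows are shown 5′ to 3′ on the gene's strand, with the motif in capitals, because they are the early response promoters in which the element CREB binds could be read directly. They lie at chr1:134079156-134079405 (minus strand), chr17:26508473-26508722 (minus strand) and chr15:79347270-79347519 (plus strand), and the motif begins 166, 143 and 29 bases before the start.
Btg2: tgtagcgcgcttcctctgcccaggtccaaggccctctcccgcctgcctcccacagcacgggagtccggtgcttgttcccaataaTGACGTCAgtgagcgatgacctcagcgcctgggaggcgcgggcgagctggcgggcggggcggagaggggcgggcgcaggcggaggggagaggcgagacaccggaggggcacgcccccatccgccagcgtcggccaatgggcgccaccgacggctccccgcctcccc
Dusp1: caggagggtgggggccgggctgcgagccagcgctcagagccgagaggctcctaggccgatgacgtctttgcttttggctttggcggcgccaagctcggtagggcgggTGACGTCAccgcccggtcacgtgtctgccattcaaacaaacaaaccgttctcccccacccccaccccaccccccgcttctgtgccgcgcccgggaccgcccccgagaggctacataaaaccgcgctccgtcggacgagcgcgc
Maff: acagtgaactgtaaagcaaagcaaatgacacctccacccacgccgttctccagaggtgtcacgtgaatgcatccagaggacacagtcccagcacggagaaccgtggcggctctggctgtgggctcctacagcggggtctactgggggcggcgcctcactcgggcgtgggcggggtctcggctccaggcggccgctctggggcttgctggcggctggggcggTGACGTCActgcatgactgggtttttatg

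None of these 3 genes differed beyond its spread. Btg2 was 8.03 to 8.54 on WT inhibitor arrays, against 8.01 to 8.30 on WT vehicle arrays, and 8.14 to 8.32 on KO inhibitor arrays, against 7.86 to 8.17 on KO vehicle arrays. Its interaction was -0.12 ± 0.11 (95% interval -0.35 to 0.12). Dusp1 gave -0.14 ± 0.25, with 9.27 on WT inhibitor 13 and 7.91 to 8.19 on the other 5 arrays of that group, against 8.10 to 8.42 on WT vehicle arrays. Maff gave 0.09 ± 0.12. Of all 361 tested genes with the motif in this window, 41 (11.4%) had an unadjusted p under 0.05 and the median was -0.04. Of 14091 with a promoter and no such motif, 1650 (11.7%) did and the median was -0.02. The median hippocampal level was 8.0 with the motif and 7.14 without it. A match is a description of letters in a window and says nothing on binding.

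Enzymes of cholesterol synthesis were nearly all negative, without any of them passing the test. Of 17 tested, 1 had a positive interaction and 16 a negative one, with a median of -0.14, and 0 passed after adjustment. At an unadjusted p under 0.05 there were 0 positive and 5 negative genes, against 5.68% and 6.15% of all genes: Idi1, Mvd, Sc5d, Msmo1 and Cyp51. The drug effect was negative for all 17 in WT and positive for 13 in KO. Of all 18193 genes it was positive for 8678 in WT and for 10354 in KO. Idi1, which interconverts the isoprenoid building blocks, was 8.83, 8.76, 8.91, 9.06, 8.91 and 8.95 on WT inhibitor arrays, against 9.29, 9.09, 9.31, 8.91, 8.93 and 9.06 on WT vehicle arrays. It was 9.03, 9.04, 9.09, 9.16 and 9.14 on KO inhibitor arrays, against 8.98, 8.85, 8.93, 9.05 and 8.96 on KO vehicle arrays. The highest WT values of Idi1, 9.29 and 9.31, were on WT vehicle 1 and 3, which were high in cerebellar transcripts.

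The groups of Idi1 overlapped in both genotypes, and its interaction was -0.33 ± 0.10 (limma adjusted p = 0.329). Mvd, the decarboxylase that precedes it in the mevalonate pathway, was 6.88 to 7.30 on WT inhibitor arrays, against 7.18 to 7.44 on WT vehicle arrays. It was 7.17 to 7.38 on KO inhibitor arrays, against 7.04 to 7.51 on KO vehicle arrays, with an interaction of -0.33 ± 0.11. Sc5d, a late desaturase, gave -0.21 ± 0.08, the methyl sterol oxidase Msmo1 -0.20 ± 0.09 and the demethylase Cyp51 -0.17 ± 0.08. Without the 4 arrays set apart by Pde10a the list's median was -0.14, with 3 of 17 genes under an unadjusted 0.05 (3.8% of all genes). Without the 4 set apart by markers it was -0.11. Its members are bright (median level log2 8.62), and bin 8, which spans that level, had 21.9% positive interactions and a median of -0.07. The median drug effects in that bin were -0.03 in WT and 0.03 in KO.

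Genes of respiration and protein synthesis were mostly negative and mostly bright, with median levels of log2 11.38 and 12.06. Of 75 nuclear genes of oxidative phosphorylation, 13 were positive and 62 negative, with a median of -0.06, and 11 had an unadjusted p under 0.05 (11.8% of all genes), all negative (6.15% of all genes). Cox7c, a small subunit of cytochrome c oxidase, gave -0.34 ± 0.10, and Ndufs4, a complex I subunit, gave -0.19 ± 0.07. Without the 4 arrays set apart by Pde10a the median was -0.04 and 2 genes of the 75 were under 0.05 (3.8% of all genes). Of 42 cytosolic ribosomal protein genes, 7 were positive and 35 negative with a median of -0.05, and 2 had an unadjusted p under 0.05 (11.8% of all genes), Rpl12 (-0.27 ± 0.07) and Rpl14 (-0.29 ± 0.09). The medians of the 3 brightest bins of all genes were -0.07, -0.05 and -0.04. Cox7c, Rpl12 and Rpl14 are dimmer than their lists, with group means of 6.34 to 6.51, 6.56 to 6.74 and 5.87 to 6.14. They lie in bins 5, 5 and 4, and the medians of bins 4 and 5 were 0.05 and -0.04.

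**Figure D5:**
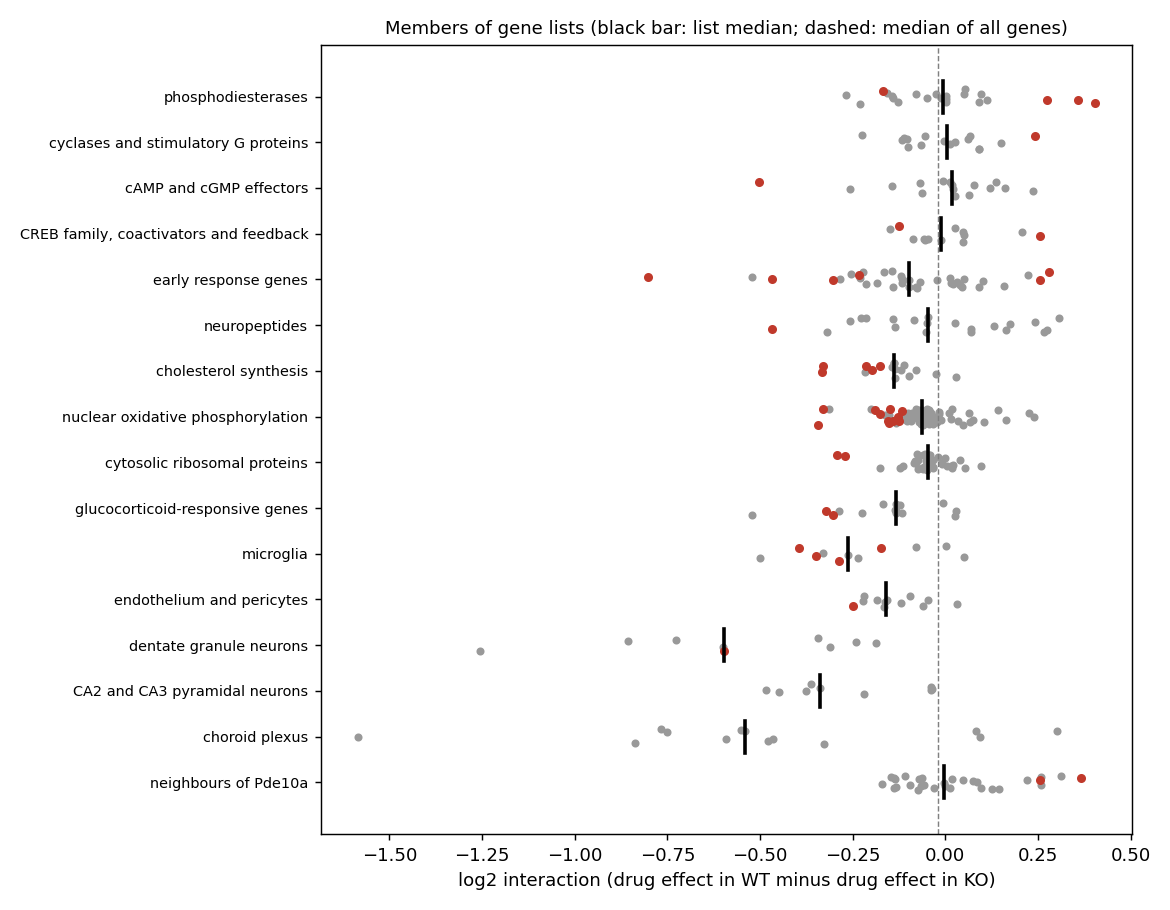
Log2 interaction of each member of 16 gene lists. Red points have an unadjusted p under 0.05, black bars are list medians and the dashed line is the median of all genes (-0.02). Dentate, CA2 and CA3 and choroid plexus lists sit at negative medians (-0.60, -0.34 and -0.54), the phosphodiesterases at -0.005.

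Of 15 glucocorticoid-responsive genes, 2 were positive and 13 negative with a median of -0.13. Their drug effect was positive for 10 in WT (median 0.02) and for all 15 in KO (median 0.16). Bin 8 of all genes, which spans the list's median level of log2 8.94, had 21.9% positive interactions and a median of -0.07. The median drug effects in that bin were -0.03 in WT and 0.03 in KO. Mt1, a metallothionein, was 12.05 to 12.29 on WT inhibitor arrays, against 12.20 to 12.56 on WT vehicle arrays, and 12.19 to 12.66 on KO inhibitor arrays, against 12.08 to 12.44 on KO vehicle arrays, with an interaction of -0.30 ± 0.12. Pdk4, a kinase that restrains pyruvate oxidation, gave -0.32 ± 0.13. These were the only 2 of 15 with an unadjusted p under 0.05 (11.8% of all genes), and without the 4 arrays set apart by Pde10a there were 0 (3.8% of all genes). Of 21 heat shock and endoplasmic reticulum chaperones 5 were positive (median -0.03), and 13 (median 0.02) without the 4 arrays set apart by markers, with Ddit3, a stress-induced transcription factor, at -0.23 ± 0.08 and Hsp90aa1, an inducible cytosolic chaperone, at 0.20 ± 0.08.

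Of 16 circadian clock genes 5 were positive, of 21 neuropeptide genes 10, and of 14 genes of GABA synthesis and interneurons 6. Over all genes 44.7% were positive, and 21.9% in bin 8, which spans the clock list's median level of log2 8.45. Of the neuropeptide list 1 member, Bdnf, had an unadjusted p under 0.05 (11.8% of all genes). Among glutamate receptor genes 8 of 19 were positive. At an unadjusted p under 0.05, 1 was positive and 2 were negative, against 5.68% and 6.15% of all genes. Gria3, an AMPA receptor subunit, was 10.77 to 10.87 on WT inhibitor arrays, against 10.56 to 10.79 on WT vehicle arrays, with an interaction of 0.22 ± 0.09. Grm4, a presynaptic metabotropic receptor, gave -0.57 ± 0.24, with its highest values on WT vehicle 1 (7.40) and KO inhibitor 36 (7.19), which carried cerebellar transcripts. Of 9 GABA-A receptor subunits 5 were positive (4 without the 4 arrays set apart by Pde10a, 3 without those set apart by markers). Of these subunits 0 had an unadjusted p under 0.05 (11.8% of all genes). Of 12 interferon response genes 2 were positive, against 60.3% in bin 4 of all genes, which spans their median level of log2 6.02. Usp18 of that list, which dampens interferon signalling, gave -0.52 ± 0.24, with a drug effect of -0.05 in WT against 0.47 in KO.

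Neuron markers of the hippocampal subfields were mostly negative, and their size or direction depended on single arrays. All 9 dentate granule markers were negative, with a median of -0.60, as were all 9 markers of CA2 and CA3 pyramidal neurons (median -0.34) and 5 of 6 of CA1 (median -0.11). The mean of the 9 dentate markers was 6.12 on WT inhibitor 13, and 7.64 to 8.54 on the other 5 arrays of its group, against 7.74 to 8.53 on WT vehicle arrays. It was 7.97 to 8.30 on KO inhibitor arrays, against 7.51 to 8.41 on KO vehicle arrays. Without WT inhibitor 13 the dentate median was -0.14 and the CA2 and CA3 median -0.24, while the CA1 median turned to 0.02 with 4 of 6 positive. Without the 4 arrays set apart by markers, which include that array, the dentate median was 0.00, with 4 of 9 positive. In that fit the CA2 and CA3 median was -0.18, with 1 of 9 positive, and the CA1 median -0.075, with 0 of 6 positive. Npnt, a matrix protein, was the only 1 of the 9 dentate markers with an unadjusted p under 0.05 (11.8% of all genes). Its interaction was -0.60 ± 0.25, from a drug effect of -0.13 in WT and 0.47 in KO.

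Choroid plexus, cerebellar and hypothalamic transcripts stood high or low on single arrays, and the part of neighbouring tissue in these values was not tested. Of 13 choroid plexus genes 3 were positive, and their median of -0.54 became 0.84, with 12 of 13 positive, without the 4 arrays set apart by markers. Ttr, which carries thyroid hormone, gave -1.59 ± 1.50. All 6 cerebellar transcripts were negative (median -1.41), and without those 4 arrays, with KO vehicle 30 kept, their median was -0.30. Of 7 hypothalamic genes 6 were positive with a median of 0.18, and 3 had an unadjusted p under 0.05 (11.8% of all genes): the peptides Avp (0.32 ± 0.11), Hcrt (0.31 ± 0.13) and Oxt (0.27 ± 0.12). Avp was 5.00 to 5.36 on WT inhibitor arrays, against 4.75 to 5.03 on WT vehicle arrays, and 4.73 to 4.98 on KO inhibitor arrays, against 4.85 to 5.15 on KO vehicle arrays, a dim range in which 73.2% of all genes leaned positive. Of the 7, 0 had an unadjusted p under 0.05 without the 4 arrays set apart by Pde10a (3.8% of all genes). Of 12 striatal projection neuron markers 8 were positive with a median of 0.03 (6, with a median of -0.01, without the 4 arrays set apart by Pde10a). The retinoic acid receptor gene Rarb (-0.43 ± 0.14) was the only 1 of these 12 with an unadjusted p under 0.05 (11.8% of all genes).

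Glial and vascular lists leaned negative in part. Of 11 microglia markers 2 were positive, with a median of -0.26, and 4 had an unadjusted p under 0.05 (11.8% of all genes). Bin 7 of all genes, which spans the list's median level of log2 8.21, had 22.6% positive and a median of -0.08. Cd68, a lysosomal protein of phagocytes, was 6.56, 6.37, 6.56, 6.82, 6.19 and 6.43 on WT inhibitor 10 to 15, against 6.60 to 7.06 with a median of 6.79 on WT vehicle arrays. It was 6.62, 6.64, 6.35, 6.80 and 6.65 on KO inhibitor arrays, against 6.59, 6.34, 6.69, 6.50 and 6.59 on KO vehicle arrays. In WT 5 of 6 inhibitor arrays lay below all vehicle arrays, the KO groups overlapped, and the interaction was -0.39 ± 0.14 (adjusted p = 0.339 in limma). The complement subunit gene C1qb gave -0.35 ± 0.16, the purinergic receptor gene P2ry12 -0.29 ± 0.14 and the lipid receptor gene Trem2 -0.17 ± 0.08. The median was -0.17 and 0 of 11 were under 0.05 (3.8% of all genes) without the 4 arrays set apart by Pde10a.

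Of 12 endothelial and pericyte markers 1 was positive and 11 negative with a median of -0.16, and the drug effect was positive for 2 in WT and for all 12 in KO. Their median level, log2 7.95, lies in bin 7, where 22.6% of all genes were positive with a median of -0.08. The median drug effects in that bin were -0.04 in WT and 0.04 in KO. Abcb1a, the efflux pump of the blood-brain barrier, gave -0.25 ± 0.10. It was the only 1 of the 12 with an unadjusted p under 0.05 (11.8% of all genes). Without the 4 arrays set apart by Pde10a all 12 were negative, with a median of -0.08 and 0 under 0.05 (3.8% of all genes). Of 10 astrocyte markers 4 were positive, with Aldh1l1, a folate enzyme, at -0.36 ± 0.14, and of 9 oligodendrocyte markers 5 (median 0.07), or all 9 (median 0.19) without the 4 arrays set apart by Pde10a. Of 10 thalamic markers 2 were positive, at a median level of log2 7.91, also in bin 7. Of 10 meningeal fibroblast markers 2 were positive (median -0.03), and 6 (median 0.05) without those 4 arrays.

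Genes that neighbour Pde10a on chromosome 17 were centred on 0. Of the 15 tested genes on either side, 30 in all, 14 were positive and 16 negative with a median of -0.002, and 2 had an unadjusted p under 0.05, a smaller share than the 11.8% of all genes: the RNA-binding protein gene Qk and the transcript Cahm. Qk, which guides splicing in glia, was 11.47 to 11.68 on WT inhibitor arrays, against 11.42, 11.43, 11.38, 11.42, 11.22 and 11.72 on WT vehicle 1 to 6. It was 11.45, 11.50, 11.23, 11.32 and 11.33 on KO inhibitor arrays, against 11.68, 11.58, 11.45, 11.62 and 11.53 on KO vehicle arrays. All WT inhibitor arrays lay above 5 of the 6 WT vehicle arrays and below WT vehicle 6, and the KO groups overlapped only in part. The interaction of Qk was 0.37 ± 0.10 (limma adjusted p = 0.325) and 0.32 without the 4 arrays set apart by Pde10a. Cahm gave 0.26 ± 0.11.

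The hippocampal interaction was set against the striatal one, measured on 20 arrays. The difference of the 2 interactions passed the threshold for 0 genes (0%), with a smallest adjusted p of 0.0754, and 1970 genes (10.8%) had an unadjusted p under 0.05, 726 positive (3.99%) and 1244 negative (6.84%). The genes with the smallest p were Fst, an activin-binding protein (1.15 ± 0.23), Otof, a calcium sensor of synaptic vesicle release (1.08 ± 0.26), and Cdcp1 (0.69 ± 0.17) in the positive direction. In the negative direction they were Atpsckmt, which methylates a subunit of ATP synthase (-0.74 ± 0.15), the Rab regulator Tbc1d16 (-0.85 ± 0.17) and Tmem68 (-0.59 ± 0.12). Fst had an interaction of 0.37 ± 0.17 in hippocampus against -0.78 ± 0.14 in striatum, and Atpsckmt -0.21 ± 0.09 in hippocampus against 0.52 ± 0.12 in striatum. Second probe sets gave hippocampal interactions of -0.05 for Fst, 0.05 for Atpsckmt and 0.22 for Tbc1d16, in each case of the opposite sign.

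Genes that had answered the drug in WT striatum were followed in hippocampus. There were 33 past the threshold in the striatal fit (0.181% of genes), 18 higher and 15 lower with inhibitor, with a median change of 0.61 in their own direction. In that direction their median drug effect was -0.04 in WT hippocampus and 0.005 in KO hippocampus, and their median interaction was -0.06. Of the 33, 10 had a hippocampal interaction in the striatal direction, and 23 had one in the opposite direction. The 5 with an unadjusted p under 0.05 (11.8% of all genes) all ran against the striatal direction: Ptprv (0.29), Otof (0.48) and Fst (0.37), lower with inhibitor in WT striatum, and Tmem68 (-0.16) and Avpi1 (-0.19), higher there. Without the 4 arrays set apart by Pde10a, 1 positive and 0 negative of the 33 were under 0.05 (3.8% of all genes). Nnat, an imprinted membrane proteolipid with the smallest p of them in striatum, was 9.77 to 10.67 on hippocampal WT inhibitor arrays, against 9.74 to 10.64 on WT vehicle arrays. It was 10.44 to 10.77 on KO inhibitor arrays, against 10.59 to 11.32 on KO vehicle arrays. The groups overlapped in both genotypes, and the hippocampal interaction of Nnat was 0.21 ± 0.23.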

How the data were processed

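Hippocampal and striatal RNA was measured on 42 arrays. The deposited values are log2 signals per probe set. The submitters' processing notes name RMA, with no version. They ran from 2.55 to 15.1, with array medians of 6.05 to 6.12. Of 45101 probe sets, 34945 had a single gene, 932 several, 9160 none, and 64 were controls. Symbols were updated through RefSeq tables of GRCm38.p6 for 34741 of them, and 204 kept their own symbol. Where a gene had several probe sets, the one brightest on average across the 42 arrays stood for it, which left 18193 genes.

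The 4 hippocampal groups, taken from the titles, were fitted with limma 3.58.1 (R 4.3.3), and the interaction was tested as a contrast, two-sided, with Benjamini-Hochberg adjustment over all genes at 0.05. Striatal arrays entered only the comparison of regions. The procedure was tested on simulated data with 200 changed genes.

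Named genes were Pde10a, the 10 smallest p of each sign and the 6 of each sign without the 4 arrays set apart by Pde10a. To these came the 3 of each sign between regions and up to 2 members of each list. Some further list members under an unadjusted 0.05 are also named, but not all of them. Clone and predicted names were passed over, 3 among the positive and 1 among the negative genes. Members and lists were chosen with earlier results of these data known. Promoters came from RefSeq. Alternatives concerned probe sets, dim genes, array weights, variance prior, groups in the fit, normalization, covariates and single arrays. Gene coordinates are not given, since the build behind the probe annotation is not stated, and a list of sex-linked transcripts and one of red blood cells are not reported.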

Additional observations from a re-analysis of the deposited data

Results flagged for a closer look

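In groups of 5 or 6 arrays, 104 sets of values were screened for a single array far from the rest of its group (Dixon's 95% critical value), and 6 were found; chance gives about 1 in 20. Irf1 was 7.48 on KO vehicle 29 and 7.63 to 7.68 on the other 4 arrays of that group. Alg9 was 7.74 on KO vehicle 26 and 7.87 to 7.90 on the others. Ppfia4 was 8.01 on WT inhibitor 13 and 8.38 to 8.50 on the others. Zfp105 was 5.94 on KO inhibitor 36 and 5.81 to 5.83 on the others. The mean of the dentate granule markers was 6.12 on WT inhibitor 13 and 7.64 to 8.54 on the others. The mean of the 6 cerebellar transcripts was 6.31 on KO vehicle 30 and 5.05 to 5.24 on the others. All are log2 signals.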

How the results depend on the processing

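For the interaction, 0 genes passed in limma under every planned or added alternative except 1 gene without WT inhibitor 13 (9030404E10Rik, 0.64, adjusted p = 0.039). The count at an unadjusted p under 0.05, 2151 as reported, was 3482 with any probe set of a gene, 692 without the 4 arrays set apart by Pde10a, 1200 without KO vehicle 25 and 26, 1255 without WT inhibitor 12 and 14, 1396 with genes under log2 6 left out (fewer genes tested), 1302 with all 42 arrays in the fit and 793 with the dim minus bright covariate. With single arrays left out it ran from 1370 (without KO vehicle 26) to 3043 (without WT inhibitor 10). For the drug effect in WT, 154 genes passed with array weights and 1 without KO vehicle 25 and 26, and 0 to 14 with single arrays left out (14 without WT inhibitor 10). Its unadjusted count was 3461 with any probe set, 1003 without the 4 arrays, 894 without WT inhibitor 12 and 14, 1121 without dim genes, 3770 with array weights, 1184 with all 42 arrays and 906 with the dim minus bright covariate, and 1317 to 3085 with single arrays left out. In KO 0 passed, and the unadjusted count was 1233, 389, 382 (without KO vehicle 25 and 26), 401 and 408 under the matching alternatives, and 399 to 1086 with single arrays left out (without KO vehicle 26 and 29). The 95% interval lay within 0.5 for 10012 genes without dim genes and for 15011 to 15854 with single arrays left out. Pde10a turned to -0.25 without WT inhibitor 12 and 14, a fall whose direction was fixed by picking them for high Pde10a. It turned to -0.11 with the mean of probe sets. With single arrays left out Pde10a ran from -0.13 (without KO vehicle 29) to 0.19. It was 0 without KO inhibitor 34, -0.08 without WT inhibitor 12 and -0.07 without WT inhibitor 14. Ctse turned to -0.11 with the mean of probe sets. The difference between regions passed for 103 genes without 4 arrays of each region. In striatum these were WT inhibitor 13 to 15 and KO vehicle 25, chosen with earlier results known and not set apart by Pde10a. Endothelial and pericyte markers averaged 8.06 to 8.23 on those WT inhibitor arrays and 8.54 to 8.60 on the kept ones. They averaged 8.51 on KO vehicle 25 and 8.01 to 8.17 on the kept KO vehicle arrays. The choice thus alters by itself the striatal interaction of these markers. Its part in other genes was not tested, and nothing is drawn from the 103. Except where fewer genes were tested, the cause was not tested. Hippocampal groups share no replicate numbers. With the number as a replicate block across regions 0 genes passed (smallest adjusted p = 0.0727), and same-numbered arrays correlated at a median of -0.04, so the numbers were not taken as pairs. Covariate and marker-based exclusions were chosen after seeing the data.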
